A study of Mus musculus with 14 samples.

Results

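The genes described here are 42 mouse genes of ribosome biogenesis and RNA polymerase I (Pol I), the enzyme that makes the ribosomal RNA precursor. They were picked by symbol, with earlier results of these data known. Each was found by its Ensembl identifier as 1 gene among the 49671 in both deposited count tables. By role, 5 encode Pol I subunits or factors that act with Pol I, 3 the proteins of box C/D small nucleolar particles, 4 those of box H/ACA particles, 4 nucleolar chaperones and organisers, 12 factors of small-subunit assembly and 14 factors of large-subunit assembly. A low-count filter removed 1 of the 42, Npm3, from the first comparison and 0 from the second.

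RNA came from freshly sorted muscle stem cells (satellite cells), with 1000 cells for each of 14 libraries. The muscle was resting triceps, pectoral and hind-limb muscle of the strain C57BL/6J. In the first dataset, mice carrying a Fos reporter and aged 4 months gave 4 FosGFP+ and 4 FosGFP- libraries. In the second, mice aged 6 months gave 3 libraries labelled FoscKO, whose name stands for a conditional knockout of Fos, which encodes a subunit of the AP-1 factor, and 3 Control libraries. The gate kept cells with CXCR4 and B1 integrin on their surface and left out those with Sca1, Ter119, CD11b, CD31 or CD45. The series text gives 4 mice for the first dataset and 3 for the second, and it gives a FosGFP+ gate for FoscKO and Control alike, so that both arms may be reporter-positive cells. It names no Cre line, allele or treatment, and libraries are not matched to mice, so p-values measure the spread between libraries only.

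Ribosomes are built in the nucleolus, where Pol I transcribes a long precursor RNA that is modified, cut and folded onto ribosomal proteins. Box C/D particles direct ribose methylation of that RNA and box H/ACA particles direct its pseudouridylation, and separate sets of assembly factors then carry the small and the large subunit towards the cytoplasm. Quiescent stem cells are known for low ribosome production, which increases when cells leave quiescence and grow.

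The libraries held 2652230 to 5983711 gene counts in the first dataset and 4797954 to 10241655 in the second. Fos, the gene targeted in FoscKO, stood at 8442, 2876 and 3805 CPM (reads of a gene relative to its library's TMM-adjusted total) in replicates 1, 2 and 3 labelled FoscKO and at 5044, 5025 and 4733 in Control. The label was therefore not borne out by a lower Fos mRNA, although counts over a whole gene do not test a deletion of part of it, and directions below are between the libraries labelled FoscKO and those labelled Control. Fos mRNA was also lower in FosGFP+ (3098 to 5398 CPM) than in FosGFP- (7908 to 12883), opposite to the reporter's name, so FosGFP+ and FosGFP- below stand for the libraries so labelled. The satellite cell markers Pax7 and Myf5 were present in all 4 groups, at group means of 52.5 to 71.9 CPM for Pax7 and 183 to 401 for Myf5. Receptor genes of smell and taste (1467 genes), which satellite cells are not known to use, gave an estimate of reads spread evenly over the genome. These made up 5.24% to 8.91% of gene counts in FosGFP+ and 11.1% to 16.3% in FosGFP-, with FosGFP- replicate 4 highest. In the second dataset they made up 3.09%, 9.61% and 5.58% in FoscKO replicates 1, 2 and 3 and 7.52% to 8.79% in Control.

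Promoters of the members are shown first, and their part in the levels below was not tested. RefSeq promoter windows (GRCm38.p6, from 250 bases before to 50 bases after the transcription start) matched 37 of the 42 genes, with 41 windows of 300 bases. The E-box CACGTG, the element that Myc and Max bind, reads the same on both strands and lay in 7 of these 41 windows (17.1%), against 7.15% of all 32851 windows and 10.5% of the windows of tested genes whose mean CPM lay between the members' quartiles (given below). In the 50 bases after the start, a part of the same windows, it lay in 6 of 41 (14.6%). That share was 1.08% for all windows and 1.80% for those of similar CPM. The 7 genes were Mybbp1a, Tsr1, Utp20, Wdr43, Ltv1, Nop2 and Pes1. Windows of 30 bases are printed 5′ to 3′ for the first 4, which are described below by library, with the E-box in capitals.
Mybbp1a, chr11:72441347-72441376, plus strand: aagtgactgtcttctgagccCACGTGtttg
Tsr1, chr11:74898092-74898121, plus strand: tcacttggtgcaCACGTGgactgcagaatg
Utp20, chr10:88826765-88826794, minus strand: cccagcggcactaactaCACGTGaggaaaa
Wdr43, chr17:71616220-71616249, plus strand: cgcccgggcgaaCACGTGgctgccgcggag
Counted from the first transcribed base as 1, these E-boxes began at positions 41, 25, 38 and 18. A match of letters is a description and not a binding site. Of the genes with an E-box, Mybbp1a, Tsr1, Wdr43, Ltv1, Nop2 and Pes1 were called higher in the test below and Utp20 was not. Nhp2, with the largest fold change, holds none in its window. A relation of the motif to the fold change was not tested.

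The ETS core CCGGAAG, searched on both strands as CCGGAAG or CTTCCGG, was chosen after the E-box result was known. It lay in 14 of the 41 windows (34.1%, 13 genes), against 8.86% of all windows and 19.1% of those of similar CPM. It is printed for 3 genes: Nhp2, which had the largest fold change, Nolc1, and Tsr1, which held both motifs. The core is in capitals.
Nhp2, chr11:51619739-51619768, plus strand: cacttgaaaacCCGGAAGtgatgtcggagg
Nolc1, chr19:46075822-46075851, plus strand: cgcgtgtgggaCCGGAAGcaacttctagat
Tsr1, chr11:74898068-74898097, plus strand: ctcgggtccgcCCGGAAGtagagttcactt
The AP-1 element TGANTCA, the element of Fos and Jun dimers, was searched on both strands and lay in 0 of the 41 windows, against 7.81% of all windows and 5.40% of those of similar CPM. The NRF1 consensus lay in 0 of 41, against 0.971% and 2.20%. Both searches were added after the first, and a 0 says only that these letters are not in these windows.

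The first comparison sets the libraries labelled FosGFP+ against those labelled FosGFP-. In FosGFP+, 37 of the 41 genes tested were higher by edgeR's quasi-likelihood test (adjusted p under 0.05 over all 20698 genes tested), and 0 were lower. Of all genes tested, 10.3% were called higher and 1.85% lower. The median log2 fold change of the 41 genes was 1.09, and all 41 were above 0, from 0.17 for Polr1a to 1.78 for Nhp2. Over all genes tested the median was -0.18 and 39.7% were above 0. In bulk RNA, fewer cells of a type and less RNA per cell cannot be told apart.

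Well-expressed genes as a whole leaned upwards in FosGFP+. The 41 genes had mean levels of 5.79 to 714 CPM, with quartiles at 64.8 and 147 CPM. Of the 14716 tested genes between the lowest and the highest of these levels, 13.8% were called higher, with a median log2 fold change of -0.05. Of the 1940 tested genes between the quartiles, 39.4% were called higher, with a median of 0.54, and 85.9% were above 0. The share among the ribosome biogenesis genes was 90.2%. It covers all 41 of them, also those below and above the quartiles, so the shares do not cover the same levels. The same holds wherever genes between the quartiles are set beside the members below.

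**Figure D1:**
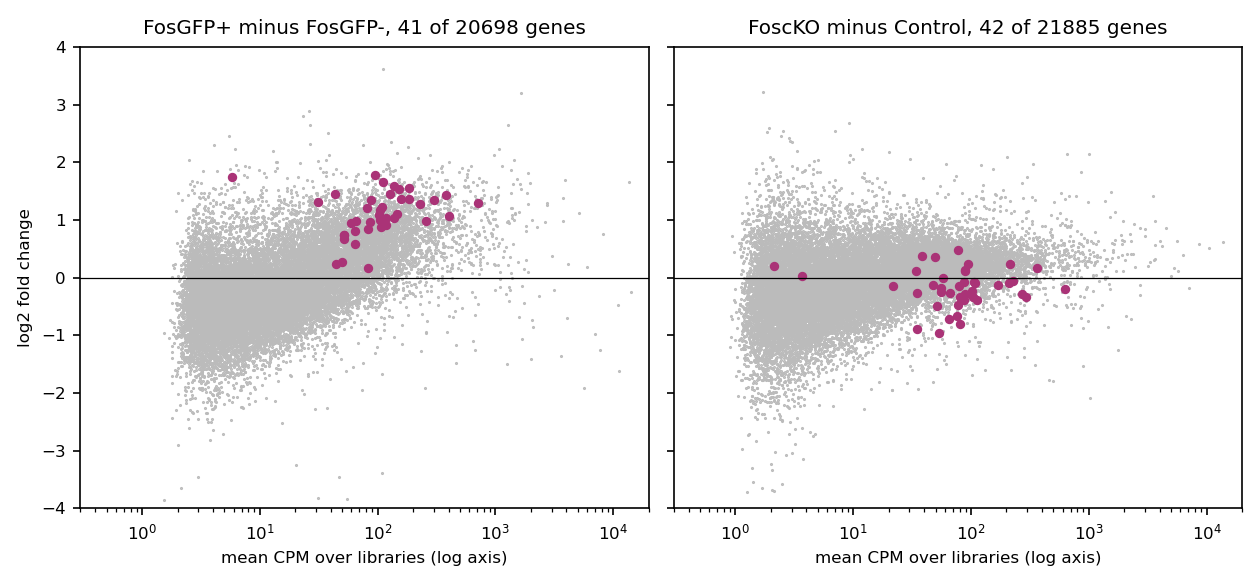
Log2 fold change (vertical) against mean CPM over libraries (horizontal, log axis) for each gene tested, in grey, and for the ribosome biogenesis and Pol I genes, in purple; genes beyond the vertical limits are not drawn. On the left all 41 purple points lie above 0 while the grey cloud tilts upwards with level, and on the right 31 of 42 lie below 0.

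The 42 genes together were counted at 7207, 8626, 7520 and 7750 CPM in FosGFP+ replicates 1 to 4 and at 3583, 3309, 3917 and 2944 CPM in FosGFP-. The means were 7776 ± 609 and 3438 ± 413 CPM (SD, n = 4). Without any scaling beyond the total, FosGFP+ had 0.667% ± 0.029 of its counts in these genes and FosGFP- had 0.384% ± 0.032 (SD, n = 4). The groups did not overlap on either measure. Gene by gene, the libraries did not overlap for 37 of the 42, all higher in FosGFP+. The share was 12.9% of all genes tested and 46.1% of the tested genes between the quartiles. The 37 include Npm3, which was not tested and whose nearest libraries stood at 2.298 (FosGFP+) and 2.297 CPM (FosGFP-). The genes that overlapped were Polr1a, Polr1b, Utp20, Bop1 and Wdr12.

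**Figure D2:**
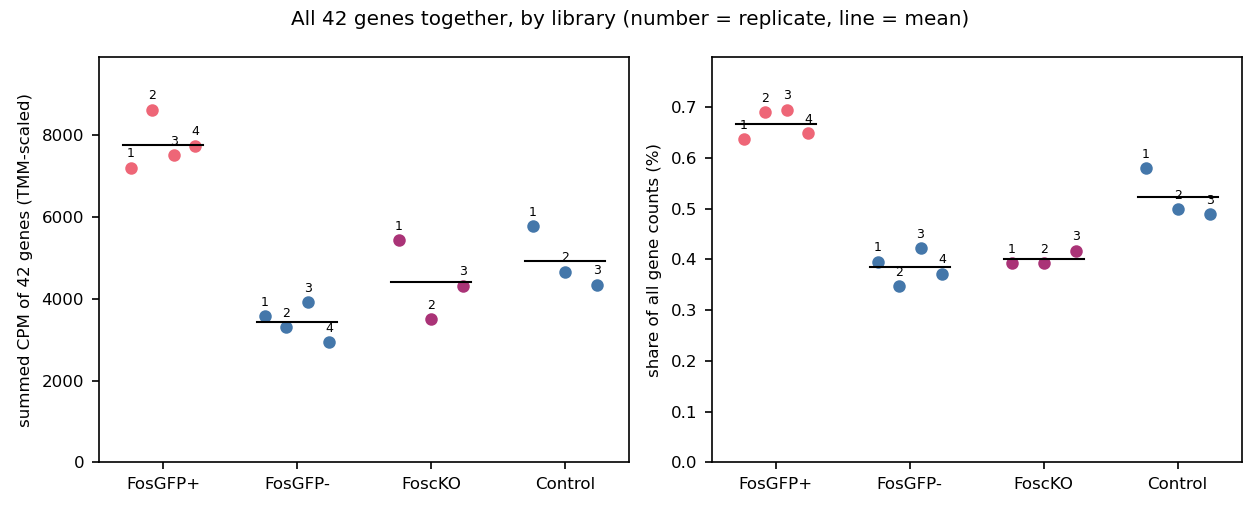
Summed level of the 42 genes in each library, as TMM-scaled CPM (left) and as percent of all gene counts (right); points are libraries with their replicate number and lines are group means. FosGFP+ lies above FosGFP- on both axes, while FoscKO and Control overlap in CPM (3507 to 5430 and 4346 to 5778) and do not overlap in the share of counts (0.392% to 0.417% and 0.489% to 0.579%).

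Of the Pol I group, 4 of 5 genes were higher, with a median log2 fold change of 0.95. Ddx21 encodes an RNA helicase that acts in Pol I transcription and rRNA processing, and lies in GRCm38 on chromosome 10 from 62580251 to 62602281. It stood at 307, 323, 218 and 266 CPM in FosGFP+ replicates 1 to 4 and at 93.8, 103, 108 and 71.7 CPM in FosGFP-. The lowest FosGFP+ library was above every FosGFP- library, and the log2 fold change was 1.56 ± 0.20 (SE; edgeR adjusted p = 1.93e-04). Mybbp1a, the Myb-binding protein of the nucleolus, stood at 325, 356, 343 and 345 CPM in FosGFP+ against 174, 160, 242 and 120 CPM in FosGFP-. The FosGFP+ libraries lay close together and the FosGFP- libraries spread 2-fold without reaching them, at a log2 fold change of 0.97 ± 0.20 (SE; edgeR adjusted p = 0.0042).

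Subunits of Pol I itself had the 3 smallest fold changes of this group, although that of Polr1c (0.95) was close to that of Mybbp1a (0.97). In the Pol I list of other pathway genes described below, Twistnb, Cd3eap and Polr1e had log2 fold changes of 1.12, 1.07 and 1.02. Polr1d (0.57) and Znrd1 (0.20) of that list had smaller ones. Polr1a, the largest catalytic subunit, stood at 76.0, 100.3, 67.7 and 104 CPM in FosGFP+ and at 83.8, 77.8, 109 and 39.4 CPM in FosGFP-, so that the groups overlapped fully. Its log2 fold change was 0.17 ± 0.26 (SE; edgeR adjusted p = 0.709), and it was -0.04 without FosGFP- replicate 4, the lowest library. Polr1b, the second catalytic subunit, stood at 82.5 ± 25.96 CPM against 46.7 ± 8.78 CPM, and Polr1c, a subunit shared with Pol III, at 77.9 ± 10.2 CPM against 40.5 ± 7.71 CPM (SD, n = 4). Their log2 fold changes were 0.82 ± 0.24 and 0.95 ± 0.21 (SE), both called. Polr1b overlapped between the groups, and its call was lost without replicate 2, 3 or 4 of either group, at log2 fold changes of 0.71 to 1.03 over the libraries left out. Polr1c kept its call in all 8 such fits and lost it under 2 of the scalings given below.

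All 3 box C/D proteins were higher, with a median log2 fold change of 1.32. Nop56, a core protein of the particle, stood at 564, 630, 501 and 521 CPM in FosGFP+ and at 257, 180, 247 and 134 CPM in FosGFP-. Its partner Nop58 stood at 478, 665, 479 and 550.1 CPM in FosGFP+ and at 217, 278, 277 and 266 CPM in FosGFP-. Neither gene overlapped between the groups, and the log2 fold changes were 1.44 ± 0.21 and 1.06 ± 0.18 (SE; edgeR adjusted p = 4.12e-04 and 9.21e-04). Fbl, the methyltransferase of the particle, stood at 44.4 ± 5.60 CPM against 17.7 ± 3.87 CPM (SD, n = 4) and was higher by 1.32 ± 0.24 (log2, SE). Of the windows of 50 bases along its transcript, 73.0% also occur in other genes, so its counts are uncertain. The same share was 37.6% for Nop56 and 40.9% for Npm1, mostly in pseudogenes.

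All 4 box H/ACA proteins were higher, with a median log2 fold change of 1.22. Nhp2, a small core protein of the particle, lies on chromosome 11 from 51619735 to 51623714 (GRCm38) and showed the largest fold change of the 41 genes. Its levels were 149.9, 144, 147 and 153 CPM in FosGFP+ and 48.1, 39.3, 50.03 and 35.2 CPM in FosGFP-. The FosGFP+ libraries differed from one another by less than 10 CPM and stood more than 2-fold above the highest FosGFP- library, with a log2 fold change of 1.78 ± 0.18 (SE; edgeR adjusted p = 8.17e-05). Dkc1, the pseudouridine synthase dyskerin, stood at 114, 179, 179 and 115 CPM against 86.2, 81.8, 62.7 and 64.5 CPM. FosGFP+ fell into a high and a low pair of libraries, both above FosGFP-, and the log2 fold change was 0.99 ± 0.21 (SE; edgeR adjusted p = 0.0054). Gar1 was higher by 1.45 ± 0.24 and Nop10 by 0.73 ± 0.21 (log2, SE), and the call of Nop10 was lost when replicate 1, 2 or 4 of FosGFP+ or replicate 1, 2 or 3 of FosGFP- was left out (0.63 to 0.86 over the libraries left out).

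Among the nucleolar chaperones and organisers, the 3 genes tested were all higher, with a median log2 fold change of 1.29. Ncl encodes nucleolin, a major nucleolar RNA-binding protein, and had the highest CPM of the 42 genes. It stood at 920.3, 1138, 1008 and 993.5 CPM in FosGFP+ and at 435, 435, 421 and 364 CPM in FosGFP-. Nolc1, the nucleolar and Cajal body phosphoprotein Nopp140, stood at 239, 292, 248 and 292 CPM against 117, 105, 102 and 93.2 CPM. Both genes were more than 2-fold apart between the nearest libraries of the 2 groups, with log2 fold changes of 1.29 ± 0.16 and 1.36 ± 0.17 (SE; edgeR adjusted p = 1.88e-04 and 1.93e-04). Npm1, the histone chaperone nucleophosmin, was higher by 0.92 ± 0.17 (log2, SE). Npm3, its paralog, stood at 3.574, 2.298, 4.835 and 2.395 CPM in FosGFP+ and at 1.114, 2.297, 1.438 and 1.493 CPM in FosGFP-, too low for a test. The even background made up an estimated 31.5% and 87.2% of its counts in the 2 groups.

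**Figure D3:**
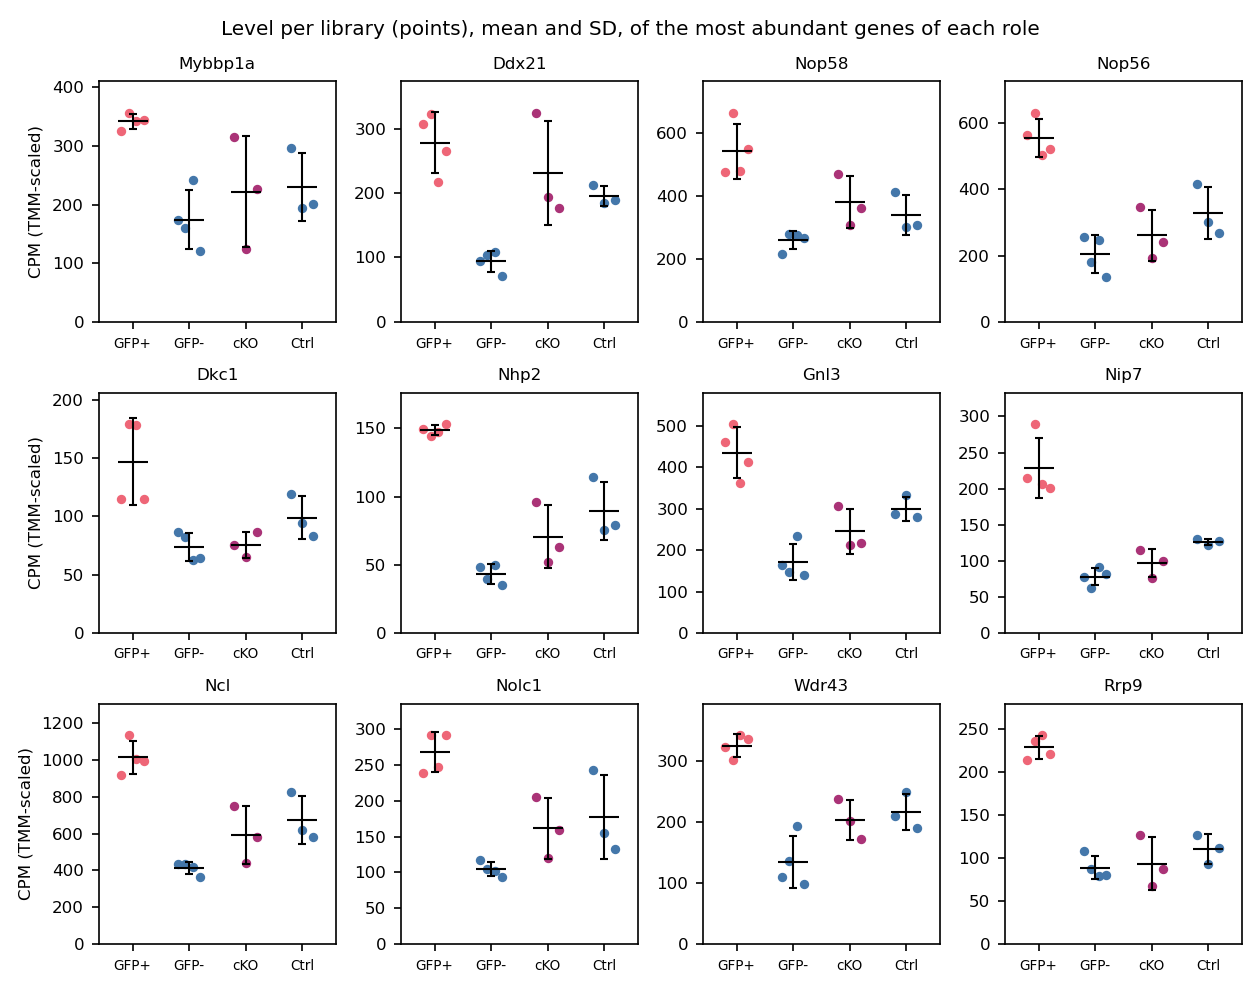
TMM-scaled CPM of the 2 most abundant genes of each role in each library, with the mean and SD of FosGFP+ (GFP+), FosGFP- (GFP-), FoscKO (cKO) and Control (Ctrl); the 2 datasets were scaled separately. In the 12 panels every GFP+ point lies above every GFP- point, while cKO and Ctrl points overlap in all but Nip7.

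Small-subunit assembly factors were higher in 10 of 12 cases, with a median log2 fold change of 1.19. Wdr43, a subunit of the complex that binds the nascent precursor RNA, stood at 322, 301, 342 and 335 CPM in FosGFP+ and at 110, 136, 194 and 97.7 CPM in FosGFP-. Rrp9, a protein of the U3 particle, stood at 214, 235, 243 and 221 CPM against 108, 86.7, 79.4 and 80.6 CPM. Tsr1, a late assembly factor of the small subunit, stood at 164, 212, 186 and 189 CPM against 76.9, 58.6, 69.3 and 69.0 CPM. In none of the 3 did the groups overlap. Their log2 fold changes were 1.28 ± 0.21, 1.36 ± 0.17 and 1.45 ± 0.18 (SE; edgeR adjusted p = 9.13e-04, 2.10e-04 and 1.61e-04). Exons of Tsr1 overlap those of Srr on the opposite strand by 1240 bases, and the kit does not keep the strand, so their reads cannot be told apart there.

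The 2 members of this role that were not called were Utp20 and Wdr75. Utp20, a very long scaffold protein of the early small-subunit particle, stood at 49.8, 54.9, 65.4 and 47.0 CPM in FosGFP+ and at 53.0, 42.5, 43.1 and 40.3 CPM in FosGFP-. The groups overlapped, at a log2 fold change of 0.28 ± 0.20 (SE; edgeR adjusted p = 0.393). Wdr75 did not overlap between the groups, and its log2 fold change was 0.58 ± 0.21 (SE; edgeR adjusted p = 0.0861). Rrp12, Noc4l, Nop14, Heatr1, Nob1, Ltv1 and Bysl, the other called members, had log2 fold changes from 0.74 for Bysl to 1.35 for Noc4l.

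Large-subunit assembly factors were higher in 13 of 14 cases, with a median log2 fold change of 1.03. Gnl3 encodes nucleostemin, a nucleolar GTPase known from stem cells, and stood at 462, 505, 361 and 414 CPM in FosGFP+ against 164, 147, 235 and 140.4 CPM in FosGFP-. Nip7 stood at 215, 289.7, 206 and 201 CPM against 77.5, 62.3, 90.9 and 81.8 CPM. No library of one group reached the other, and the log2 fold changes were 1.34 ± 0.20 and 1.55 ± 0.19 (SE; edgeR adjusted p = 4.59e-04 and 1.93e-04). Rrs1, which helps bring the 5S particle into the large subunit, stood at 160.4, 189, 136 and 185 CPM against 53.7, 39.0, 65.6 and 52.9 CPM. Nop16 stood at 198, 262, 177 and 190.3 CPM against 70.6, 66.04, 87.99 and 50.2 CPM. Both were at least 2-fold apart between the nearest libraries, at log2 fold changes of 1.67 ± 0.20 and 1.59 ± 0.21 (SE; edgeR adjusted p = 1.61e-04 and 2.35e-04).

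The 3 subunits of the PeBoW complex, which matures the large subunit, are Bop1, Pes1 and Wdr12, and Wdr12 was the one not called. Bop1 stood at 114, 118, 80.8 and 118 CPM in FosGFP+ and at 83.3, 36.2, 72.5 and 46.6 CPM in FosGFP-, with 1 FosGFP+ library below the highest FosGFP- library. Its log2 fold change was 0.85 ± 0.25 (SE; edgeR adjusted p = 0.0359), and the call was lost when replicate 1, 2 or 4 of FosGFP+ or replicate 2 or 4 of FosGFP- was left out (0.69 to 1.07 over the libraries left out). Pes1 was higher by 0.96 ± 0.22 (log2, SE). Wdr12 stood at 47.7, 47.8, 52.9 and 42.03 CPM against 34.3, 44.5, 42.3 and 40.3 CPM, an overlap of both groups, with a log2 fold change of 0.24 ± 0.20 (SE; edgeR adjusted p = 0.455).

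Wdr74, which acts early in large-subunit maturation, had a log2 fold change of 1.74 ± 0.43 (SE; edgeR adjusted p = 0.0134) at low levels. Its libraries stood at 8.58, 8.98, 9.10 and 9.15 CPM in FosGFP+ and at 3.79, 2.01, 1.44 and 3.29 CPM in FosGFP-. The even background made up an estimated 17.1% of its counts in FosGFP+ and 79.4% in FosGFP-. After that background was subtracted its log2 fold change was 3.01 ± 1.01 (SE; edgeR adjusted p = 0.0875), and the call was lost there, with total gene counts (1.35) and with TMM from genes of at least 50 CPM (1.14). Rrp1b, which helps direct a phosphatase to the nucleolus, was higher by 0.99 ± 0.20 and Noc3l, a partner of Noc2l on the large subunit, by 0.67 ± 0.21 (log2, SE). The call of Noc3l was lost when replicate 2, 3 or 4 of FosGFP+ or replicate 1, 2 or 4 of FosGFP- was left out (0.59 to 0.80 over the libraries left out).

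**Figure D4:**
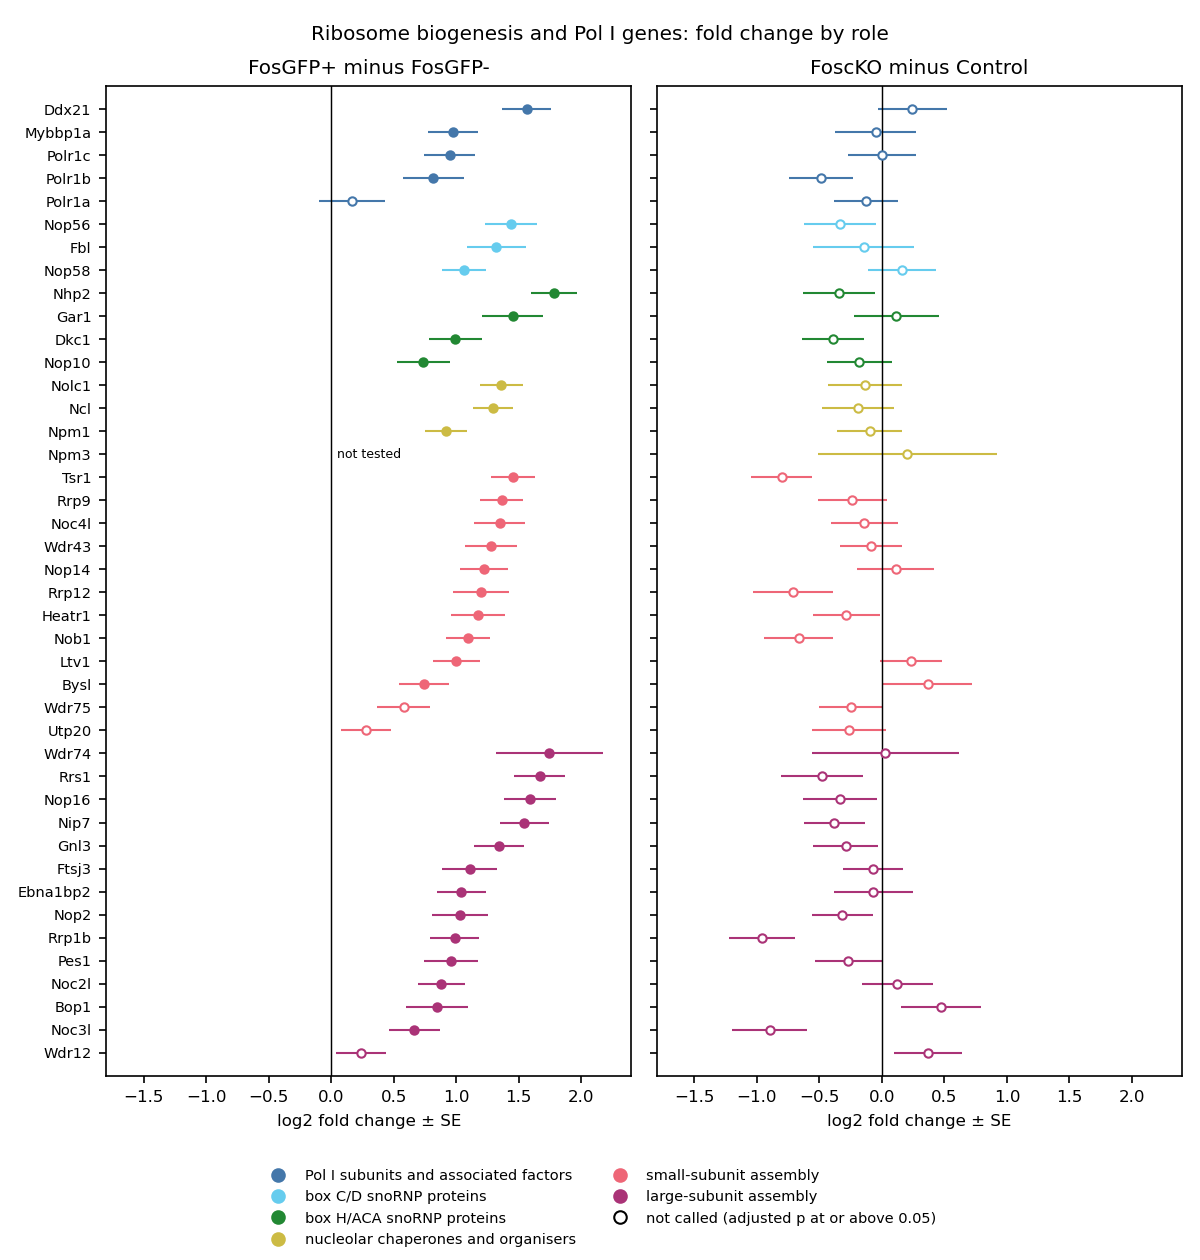
Log2 fold change with its SE for each of the 42 genes, grouped and coloured by role, for FosGFP+ minus FosGFP- (left) and FoscKO minus Control (right); filled points were called by edgeR's quasi-likelihood test and open points were not. On the left 37 points are filled and all lie to the right of 0; on the right all 42 are open.

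Per kilobase of annotated exon, merged over all transcripts of a gene, the box C/D protein Nop56 was highest in both groups. It stood at 135 CPM per kb in FosGFP+ and 49.9 in FosGFP-. Merged exons can be much longer than a single transcript, as for Gnl3 (6101 bases merged, 1947 in its longest coding transcript). The order of genes per kb therefore depends on the annotation. In FosGFP+ Nhp2 followed at 130 CPM per kb, then Nop16 at 112 and Ncl at 99.6. In FosGFP- Ncl came next at 40.6 CPM per kb, then Nhp2 at 37.7 and Nop16 at 37.2. The lowest were Npm3, Wdr12, Wdr74, Utp20 and Polr1a, at 2.76 to 7.33 CPM per kb in FosGFP+. Wdr12, Utp20 and Polr1a, 3 of the 4 genes not called, have long annotated exons (11955, 10199 and 11871 bases), and the even background made up an estimated 25.9%, 33.1% and 20.2% of the FosGFP- counts of Utp20, Wdr12 and Polr1a. With that background subtracted, the log2 fold changes of Utp20, Wdr12 and Polr1a were 0.22, 0.24 and 0.04, and they were still not called. Across the 41 genes, Spearman's rho between the log2 fold change and exonic length was -0.35, and -0.30 after the background was subtracted, while over 20655 of the genes tested it was 0.15. These genes share their libraries and are not independent. The order of levels per kb in FosGFP- and in Control was much the same (rho = 0.94 over 42 genes). Small nucleolar RNA genes are annotated within Ncl, Nop56, Nop58, Dkc1, Tsr1, Wdr43 and Gnl3, from 1 in Dkc1 to 5 in Nop56.

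The size of the difference depended on the scaling, and its direction did not for 38 of the 41 genes. With total gene counts as the library size, 28 members were called higher and 0 lower, with a median log2 fold change of 0.71. Of all genes 4.97% were called higher, and of those between the quartiles 17.4%, with a median of 0.17. With TMM factors from genes of at least 50 CPM, 20 were called higher and 0 lower, with a median of 0.50, beside 3.44% of all genes and 12.1% of those between the quartiles (median -0.04). After an even background was subtracted from each gene, 31 were called higher and 0 lower, with a median of 0.92, beside 8.38% of all genes and 23.7% of those between the quartiles (median 0.38). Median log2 fold changes over all genes tested were -0.56, -0.77 and -0.17 in these settings. Polr1a, Utp20 and Wdr12 fell below 0 under the first and second of them, at -0.40 to -0.10, and were not called. Bop1, Bysl, Noc3l, Nop10, Polr1b and Wdr74 lost their call in all 3 settings. Noc2l, Pes1 and Polr1c lost it in the first and second, and Dkc1, Fbl, Ftsj3, Ltv1, Mybbp1a, Nop2, Npm1 and Rrp1b in the second alone. Ddx21, Nop56, Nop58, Nhp2, Ncl, Nolc1, Rrp9, Tsr1, Wdr43, Gnl3, Nip7, Rrs1 and Nop16 were called in each.

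**Figure D5:**
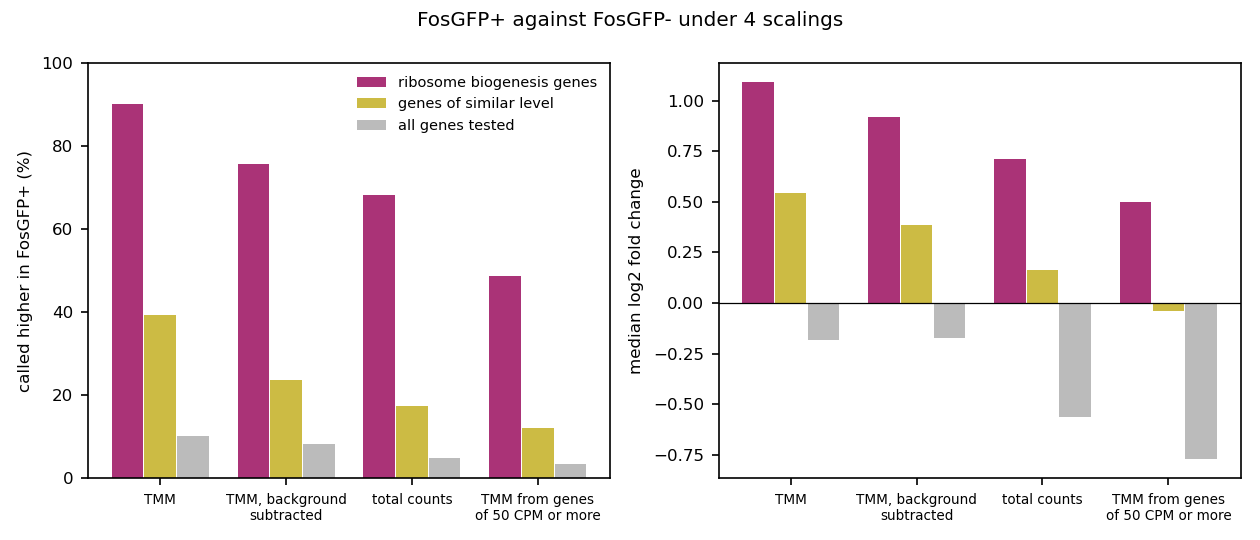
Percent of genes called higher in FosGFP+ (left) and median log2 fold change (right) under 4 scalings, for the 41 ribosome biogenesis and Pol I genes, the 1940 genes between the quartiles of their mean CPM and all genes tested. The purple bars fall from 90.2% to 48.8% and from 1.09 to 0.50, and they stand above the other bars in each setting.

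Markers of other cells were checked in the same libraries. Summed endothelial markers stood at 229 to 297 CPM in FosGFP+ and 299 to 408 CPM in FosGFP-, with 11 of 11 tested below 0, 1 called lower and no marker at 0 in all libraries of a group. Summed satellite cell markers stood at 8052 to 12020 CPM in FosGFP+ and 5055 to 7350 CPM in FosGFP-, with 3 of 10 called higher, 6 above 0 and 4 below. Sdc4 (5416 against 2069 CPM on average) and Vcam1 (1940.2 against 842 CPM) made up most of that sum in FosGFP+, while Pax7, Calcr, Chodl and Cdh15 were below 0 (-0.51 to -0.09) and not called. Of 8 fibro-adipogenic markers Smoc2 was called lower (log2 fold change -3.84), and of 6 smooth muscle and pericyte markers Cspg4 (-1.19), with sums that overlapped between the groups. Summed mature fibre markers overlapped, at 567 to 1220 and 567 to 777 CPM. The part of these marker levels, of depth and of the even background in the results was not tested beyond the subtraction above. Without FosGFP- replicate 4, the library with the highest background and the lowest level for 22 of the 42 genes, 34 members were called. Without FosGFP+ replicate 1, the lowest for 22, 36 were called.

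Other genes of the same pathway were taken from 4 lists, also chosen with earlier results of these data known. The lists held 106 matched genes, 105 of them tested. Of these 64 were higher and 0 lower in FosGFP+, with a median log2 fold change of 0.84. Among all tested genes between the quartiles of their mean CPM, 22.1% were called higher. Total gene counts gave 36 higher and 1 lower, beside 7.47% higher among those genes, and TMM from genes of at least 50 CPM gave 29 and 3, beside 4.64%. For each list the share called higher among genes between its own CPM quartiles is given, and the genes named are those with the smallest p. Pol I transcription genes were higher in 6 of 12 cases (background 16.5%). Taf1c, a subunit of the promoter selectivity factor, was higher by 1.67 ± 0.26, Rrn3, the initiation factor that recruits Pol I, by 1.18 ± 0.21, and Twistnb, a stalk subunit of Pol I, by 1.12 ± 0.24 (log2, SE). Large-subunit factors were higher in 25 of 41 cases (background 28.1%), among them Nifk at 1.63 ± 0.19, Ppan at 1.57 ± 0.20 and Brix1 at 1.32 ± 0.18. Small-subunit factors were higher in 28 of 40 cases (background 23.4%), among them Rcl1 at 1.58 ± 0.22, Pno1 at 1.38 ± 0.20 and Utp3 at 1.37 ± 0.20. Genes of the exosome, the nuclease that trims rRNA, were higher in 5 of 12 cases (background 12.5%), among them the subunit genes Exosc3 at 1.35 ± 0.26, Exosc10 at 0.96 ± 0.19 and Dis3 at 1.09 ± 0.22. The 12 genes named had edgeR adjusted p-values from 1.58e-04 to 0.0057.

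Myc, the E-box factor named above, stood at 2963 ± 440 CPM in FosGFP+ and 950 ± 175 CPM in FosGFP- (SD, n = 4), with a log2 fold change of 1.64 ± 0.18 (SE; edgeR adjusted p = 1.32e-04). In the second dataset Myc stood at 1090 ± 467 CPM in FoscKO and 1510 ± 278 CPM in Control (SD, n = 3), with ranges that overlapped. The part of Myc in the members' levels was not tested. The authors' deposited table for the first comparison lists 3422 genes and holds 38 of the 42. All 38 share the same sign there, with log2 fold changes of 0.64 to 1.81 once that sign is turned to match the fit here. Over the genes listed, the deposited values ran opposite to the fit (rho = -0.997). Both come from the same libraries, so the direction in that table is not a separate result. Wdr75, at 0.64 (adjusted p = 0.0327 in the authors' deposited table), is the gene listed there that was not called by edgeR.

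The second comparison sets the libraries labelled FoscKO against those labelled Control. None of the 42 genes differed between the libraries labelled FoscKO and Control by edgeR's quasi-likelihood test, and 0 of all 21885 genes tested were called (0.0% higher and 0.0% lower). By unadjusted p under 0.05, 5 of the 42 passed, all lower in FoscKO, against 3.56% of all genes higher and 1.96% lower. DESeq2 called 93 genes, of which 0 were members. The median log2 fold change of the 42 was -0.16, and 31 were below 0 and 11 above. Over all genes tested the median was -0.04 and 52.6% were below 0. Of the 1799 genes between the quartiles of the members' mean CPM (54.2 and 105 CPM), 24.2% were below 0, with a median of 0.22.

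The 42 genes together stood at 5430, 3507 and 4319 CPM in FoscKO replicates 1, 2 and 3 and at 5778, 4665 and 4346 CPM in Control. The ranges overlapped. As a share of all gene counts they took 0.393%, 0.392% and 0.417% in FoscKO and 0.579%, 0.499% and 0.489% in Control, which did not overlap. Libraries also ranked alike across the members: FoscKO replicate 1 was the highest of its group for 28 genes and replicate 2 the lowest for 29, and Control replicate 1 was the highest of its group for 34.

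In 6 genes all FoscKO libraries lay below all Control libraries (14.3%, against 6.47% of all genes tested and 2.89% of those between the quartiles). In 0 members did they all lie above, against 5.75% of all genes tested and 13.7% of those between the quartiles. The 6 genes were Rrp1b, Noc3l, Tsr1, Rrp12, Polr1b and Nip7. Rrp1b stood at 30.8, 36.7 and 41.96 CPM in FoscKO and at 84.8, 71.2 and 57.3 CPM in Control, a log2 fold change of -0.96 ± 0.26 (SE; edgeR adjusted p = 0.499). Noc3l stood at 17.3, 24.04 and 32.2 CPM against 45.7, 40.5 and 51.0 CPM, a log2 fold change of -0.90 ± 0.30 (SE; edgeR adjusted p = 0.711). Both are factors of large-subunit assembly, and their highest FoscKO library lay below their lowest Control library. Tsr1 stood at 50.9, 55.2 and 70.6 CPM against 112, 107 and 88.9 CPM, a log2 fold change of -0.80 ± 0.25 (SE; edgeR adjusted p = 0.644). Rrp12, an export factor of the small subunit, had a log2 fold change of -0.71 ± 0.32, Polr1b -0.49 ± 0.26 and Nip7 -0.38 ± 0.24 (SE). None of the 6 passed the adjusted threshold, and the values of Rrp1b, Noc3l and Tsr1 stayed negative in every alternative and with each library left out.

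At the other end, Bop1 stood at 124, 53.9 and 93.5 CPM in FoscKO and at 89.3, 56.2 and 50.3 CPM in Control, a log2 fold change of 0.47 ± 0.32 (SE; edgeR adjusted p = 0.914). Bysl, the small-subunit factor bystin, stood at 86.2, 29.6 and 49.6 CPM against 56.4, 31.7 and 40.7 CPM, and Ddx21 at 324, 194 and 177 CPM against 213, 185 and 188 CPM. Wdr12 stood at 38.8, 51.8 and 38.4 CPM against 30.3, 38.8 and 30.5 CPM. All 4 overlapped between the groups, and in Bop1, Bysl and Ddx21 the highest library was FoscKO replicate 1. Without that library the log2 fold changes of Bysl and Ddx21 were -0.10 and -0.08.

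Fold changes of the abundant members lay on both sides of 0. Ncl stood at 752, 439 and 582 CPM in FoscKO and at 825, 617 and 583 CPM in Control, Nop56 at 346, 194 and 241 CPM against 416, 301 and 268 CPM, and Mybbp1a at 314, 125 and 227 CPM against 296, 194 and 200.4 CPM. Nop58 stood at 471, 309.6 and 361 CPM against 413, 302 and 307 CPM. The groups overlapped in each, and the log2 fold changes of the 4 were -0.19 ± 0.29, -0.33 ± 0.29, -0.05 ± 0.33 and 0.16 ± 0.27 (SE). Nhp2, which led the first comparison, stood at 96.3, 52.2 and 63.4 CPM against 114, 75.8 and 79.2 CPM, a log2 fold change of -0.34 ± 0.28 (SE; edgeR adjusted p = 0.917).

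By role, the medians of the log2 fold changes were -0.05 for Pol I genes, -0.15 for box C/D proteins, -0.26 for box H/ACA proteins, -0.11 for chaperones and organisers, -0.24 for small-subunit and -0.28 for large-subunit factors. With total gene counts as the library size 39 of the 42 were below 0, with a median of -0.40, and 17 were lower by an unadjusted p under 0.05. In that setting 67.4% of all genes were below 0 (median -0.21) and 3.25% lower by unadjusted p, and of the genes between the quartiles 50.5% (median -0.0012) and 6.89%. Without FoscKO replicate 1, 38 members were below 0 with a median of -0.33, beside 50.1% of all genes and 40.5% of those between the quartiles. Without FoscKO replicate 2, 23 were below 0 with a median of -0.06, beside 57.2% and 18.0%. No member was called under these or any other setting. The SE of the members ran from 0.24 to 0.72. On simulated counts for this comparison, the fit recovered 4 of 200 genes given a 2-fold difference and 125 of 200 given a 4-fold one. Those genes were drawn at random from genes of at least 5 CPM. They were not matched to the members' levels, so these counts do not give the recovery of the members.

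Mature fibre markers summed to 400 to 1536 CPM in FoscKO and 1343 to 2790 CPM in Control, ranges that overlapped, with 10 of 10 below 0, 8 at an unadjusted p under 0.05, 0 called and no marker at 0 in all libraries of a group. By unadjusted p under 0.05, 3 of 8 fibro-adipogenic, 3 of 10 satellite cell and 1 of 11 endothelial markers tested also passed. So did 2 of 6 smooth muscle and pericyte markers, and 0 of them all were called. The part of these markers in the values above was not tested. Of the other 105 pathway genes tested, 0 were called, 58 were above 0 and 47 below, with a median of 0.02. The 3 with the smallest p in the Pol I list were Ubtf, which activates Pol I transcription (0.74 ± 0.30), the Pol I subunit Cd3eap (-0.73 ± 0.37) and Rrn3 (0.28 ± 0.25), as log2 fold changes with SE. In the large-subunit list they were Nle1 (-0.97 ± 0.32), Nol9 (-0.80 ± 0.29) and Ddx54 (-0.56 ± 0.25), and in the small-subunit list Dhx37 (0.99 ± 0.32), Ddx10 (0.52 ± 0.28) and Aatf (0.54 ± 0.30). In the exosome list they were Exosc9 (0.52 ± 0.35), Mtrex (0.35 ± 0.24) and Exosc7 (-0.41 ± 0.33). The authors' deposited table for this comparison lists 69 genes, of which 0 are members.

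The comparisons share no library, and their values can be set side by side. Of the 41 genes with values in both, 31 were above 0 in FosGFP+ minus FosGFP- and below 0 in FoscKO minus Control, and 10 were above 0 in both. Since all 41 were above 0 in the first, this count is that of the second alone. Tsr1 (1.45 and -0.80), Rrp1b (0.99 and -0.96) and Noc3l (0.67 and -0.90) were the members furthest below 0 in the second comparison. Ddx21 (1.56 and 0.25) and Bop1 (0.85 and 0.47) were above 0 in both. Spearman's rho between the log2 fold changes of the 2 comparisons was -0.18 over the 41 genes.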

How the data were processed

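RNA was amplified with SMART-Seq v4, which does not keep the strand, and tagged with Nextera XT for HiSeq sequencing, per the labels' protocols. Per the submitters' processing notes, the tools were HTSeq 0.6.1, STAR 2.5.0c, limma and DESeq2 1.20.0 on GRCm38, with no role given. Raw counts per Ensembl gene were deposited by the authors as 2 tables and, for each comparison, a table of log2 fold changes with p-values and adjusted p-values, whose sign was turned here. Their 14 further columns of per-library values matched no label and were not used. The 5 HTSeq lines that name no gene were left out: 10.3% to 30.2% of reads fell in genes.

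The datasets were fitted apart with edgeR 4.0.16 (R 4.3.3): filterByExpr, TMM, robust quasi-likelihood F-test, two-sided, no covariate, Benjamini-Hochberg adjusted p under 0.05 over all genes tested. SE is the log2 fold change divided by the square root of F. Symbols, positions and exons came from GENCODE M21 (49412 of 49671 identifiers). The members and lists were chosen with earlier results of these data known. Named genes are the 2 of highest CPM per role, the 4 highest and 3 lowest fold changes per comparison, and 3 of smallest p per list; others in the text were named after their values were seen. Alternatives were DESeq2 size factors, TMM from genes of at least 50 CPM, total gene counts, library sizes without the 20 most abundant genes, no filter, a mean of at least 5 CPM, DESeq2 1.42.0, limma-voom (3.58.1), a replicate block, subtraction of an even background, and each library left out. Genes between the CPM quartiles of the members and of the other lists were added as a background after seeing the data. Tested on simulated data, the fit for the first comparison recovered 173 of 200 genes with a 4-fold change and 33 of 200 with a 2-fold change, and that for the second 125 and 4. The changed genes were drawn at random from those of at least 5 CPM, up and down in equal number, and were not matched to the members' levels.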

Additional observations from a re-analysis of the deposited data

Results flagged for a closer look

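In 3 of 86 groups of 4 libraries examined (the 42 genes and their sum in FosGFP+ and FosGFP-), 1 library stood far from the other 3, where chance gives about 1 in 20. Bysl, the small-subunit factor bystin, was at 29.27 CPM in FosGFP- replicate 4 and at 41.35 to 42.27 CPM in the others. Bop1 was at 80.78 CPM in FosGFP+ replicate 3 and at 113.7 to 117.6 CPM in the others. Nip7, a factor of large-subunit assembly, was at 289.7 CPM in FosGFP+ replicate 2 and at 201.2 to 214.7 CPM in the others.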

How the results depend on the processing

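In the first comparison (37 members, 64 other pathway genes and 2508 genes called in all), TMM factors from genes of at least 50 CPM gave 20, 32 and 6019 (712 higher, 5307 lower), and total gene counts gave 28, 37 and 3116 (1029 higher, 2087 lower). Subtraction of the background gave 31 members and 1570 genes (1314 higher, 256 lower). The members' median of 1.09 became 0.50, 0.71 and 0.92 in these 3 settings. Under TMM from genes of at least 50 CPM and total counts the log2 fold change of Polr1a was -0.40 and -0.20, of Wdr12 -0.35 and -0.14, and of Utp20 -0.31 and -0.10. With 1 library left out, 33 to 36 members, 54 to 65 other pathway genes and 1893 to 2566 genes were called, the median was 1.07 to 1.23 and Polr1a was -0.0418 to 0.39. The 37 calls were kept in all 8 such fits by 33 members. In the second comparison 0 members and 0 other pathway genes were called in any setting. Genes called in all numbered 46 with total counts, 44 with TMM from genes of at least 50 CPM, 131 without a filter, 32 at a mean of at least 5 CPM, 10 by limma-voom, 93 by DESeq2 and 15 after subtraction. With 1 library left out they numbered 0 to 43, 43 without FoscKO replicate 1, and the members' median was -0.33 to -0.06. Values near 0 changed sign: Mybbp1a (0.0036 with DESeq2 size factors, 0.0034 by DESeq2), Ddx21 (-0.0029 and -0.0064 with total counts and TMM from genes of at least 50 CPM), Nop58 (-0.0633 and -0.0706) and Wdr74 (-0.183 and -0.189). With 1 library left out the ranges crossed 0 for Mybbp1a (-0.38 to 0.25), Ddx21 (-0.0773 to 0.41), Nop58 (-0.021 to 0.33), Ncl (-0.40 to 0.0025), Nolc1 (-0.35 to 0.18), Wdr43 (-0.21 to 0.0238), Wdr74 (-0.12 to 0.22) and Bysl (-0.10 to 0.68). The cause of these changes was not tested. Deviations of libraries with the same replicate number correlated at -0.0054 to 0.028 in the first dataset and -0.041 to 0.21 in the second. Libraries with different numbers correlated at -0.14 to 0.17 and at -0.23 to 0.22. With so few libraries these values cannot tell whether libraries of the same number share a mouse. With the replicate block, 35 members (without Noc3l and Polr1b) and 2280 genes were called in the first comparison, and 0 and 43 in the second. Npm3 and Wdr74 had few counts, and the even background made up an estimated 87.2% and 79.4% of their FosGFP- counts.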
